A study of Mus musculus with 32 samples.

Results

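RNA of re-sorted Epcam+ lung epithelial cells was compared between cultures treated with osteoglycin (OGN) and cultures treated with fibroblast-derived extracellular vesicles (EVs). The comparison took all Epcam+ libraries of these 2 treatments, which were 8 of the 32 libraries of the series, with 1 library of each treatment from each of 4 mice. It covered all 11818 genes of the count table, and no vehicle library entered the test. The cells were CD31-/CD45-/Epcam+ cells from the lungs of naive C57BL/6J mice of 8 to 14 weeks of age. In every group they were grown in Matrigel with CCL206 cells, a mouse lung fibroblast line that had been stopped from dividing with mitomycin C. The medium held recombinant human OGN at 10 µg/mL, or EVs at 1000000000 particles per mL from MRC5 cells, a human fetal lung fibroblast line, for 72 h. Cells were then separated again with Epcam (CD326) microbeads. The remaining groups of the series were vehicle and the soluble factors (SFs) of the same MRC5 cells, and CCL206 fibroblasts were also sequenced for each treatment. OGN was dosed by mass and EVs by particle number, so the doses were not matched, and 1 CCL206 line served all cultures.

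OGN, also called mimecan, is a small leucine-rich proteoglycan of connective tissue that is made mainly by fibroblasts and lies among collagen fibers. EVs are membrane-bound particles that carry proteins, lipids and RNA from the cell that shed them. The main epithelial progenitor of the alveolus is the alveolar type 2 (AT2) cell, which makes surfactant and gives rise to the flat alveolar type 1 (AT1) cell. Epithelial cells of the lung also act in innate defense: signals through NF-kB and C/EBP factors switch on acute-phase proteins, antimicrobial proteins and chemokines that attract neutrophils.

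Levels below are TMM-scaled CPM, that is counts scaled to the size of their library, with TMM factors set over the 16 Epcam+ libraries, and they are given in the order of mouse 1 to mouse 4. Changes are log2 fold changes of OGN minus EVs with their standard errors (SE), and a gene was called differentially expressed at a Benjamini-Hochberg adjusted p under 0.05 in the quasi-likelihood F test of edgeR, with mouse and treatment as terms. Depth ran from 3792377 to 13705527 counts in OGN libraries and from 4317181 to 17675454 in EV libraries. The OGN library of mouse 4 stood apart, at 35.4 on the first principal component (53.9% of the variance over 500 genes) against -12.7 to 5.65 for the other 7 libraries. In that library ribosomal protein genes took 5.33% of counts against 4.17 to 4.90% in the other 7. Epcam itself, the gene of the sorting antigen, was at 283, 334, 261 and 370.05 CPM with OGN and 283, 317, 243 and 226 CPM with EVs (log2 fold change 0.22 ± 0.11 SE, adjusted p = 0.414). Of 25 leukocyte and endothelial markers 4 could be analysed, and Ptprc (CD45), Pecam1 (CD31) and Cdh5, the defining ones, were not analysed here. As these are bulk samples, fewer cells of a type and less RNA per cell cannot be told apart.

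Of 11581 genes tested, 217 (1.87%) were differentially expressed. With OGN, 65 genes (0.561% of those tested) were higher and 152 (1.31%) were lower than with EVs. The median absolute log2 fold change of the 217 genes was 0.66, and 55 of them differed by more than 2-fold, 16 higher and 39 lower. All 217 moved in the same direction in 4 of 4 mice, as did 2553 of all 11581 genes tested. The 217 were chosen by a test on these same libraries, so this agreement is no separate support. In 187 of the 217 the 4 OGN values and the 4 EV values did not overlap, while over all genes tested 777 (6.71%) did not overlap. Leaving out mouse 4, whose OGN library stood apart, gave 289 genes (105 higher and 184 lower), and these held 212 of the 217. Leaving out mouse 1 gave 95, mouse 2 137 and mouse 3 99. The 24 genes described first, 12 in each direction with the smallest p, passed the test whichever mouse was left out, while of all 84 genes named below that passed it, 36 did not without mouse 1, 20 without mouse 2, 30 without mouse 3 and 1 without mouse 4.

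The genes that were higher with OGN were led by acute-phase, antimicrobial and chemokine genes. Saa3, an acute-phase serum amyloid A protein that is induced in lung epithelium and fibroblasts, was at 124, 121, 104 and 99.8 CPM with OGN and at 10.1, 4.14, 7.86 and 6.03 CPM with EVs. The OGN libraries lay far above the EV libraries in each mouse, with log2 ratios of 3.62, 4.87, 3.73 and 4.05. This was a 15.5-fold difference (log2 fold change 3.95 ± 0.15 SE, adjusted p = 5.01e-08). Lcn2, the iron-siderophore binding protein lipocalin 2, was at 503, 480.1, 463 and 366 CPM with OGN and 142, 92.8, 107 and 118 CPM with EVs. All 4 OGN libraries were above all 4 EV libraries, and the difference was 3.94-fold (1.98 ± 0.11 SE, adjusted p = 1.62e-06). Chil1, a chitinase-like protein, was at 1022, 928, 815 and 859.9 CPM with OGN and 473, 352, 371 and 421 CPM with EVs, a 2.25-fold difference without overlap (1.17 ± 0.084 SE, adjusted p = 1.59e-05).

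The vehicle libraries lay below every EV library for these 3 genes. Saa3 was at 1.07, 0.655, 0.821 and 0.284 CPM with vehicle, Lcn2 was at 37.9, 44.9, 26.3 and 42.5 CPM and Chil1 at 238, 171, 191 and 210.1 CPM. With SFs, Saa3 was at 10.5, 11.7, 13.4 and 15.2 CPM, so that the SF libraries lay above the EV libraries, without overlap, and far below the OGN libraries. Vehicle and SF libraries entered no test here.

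**Figure D1:**
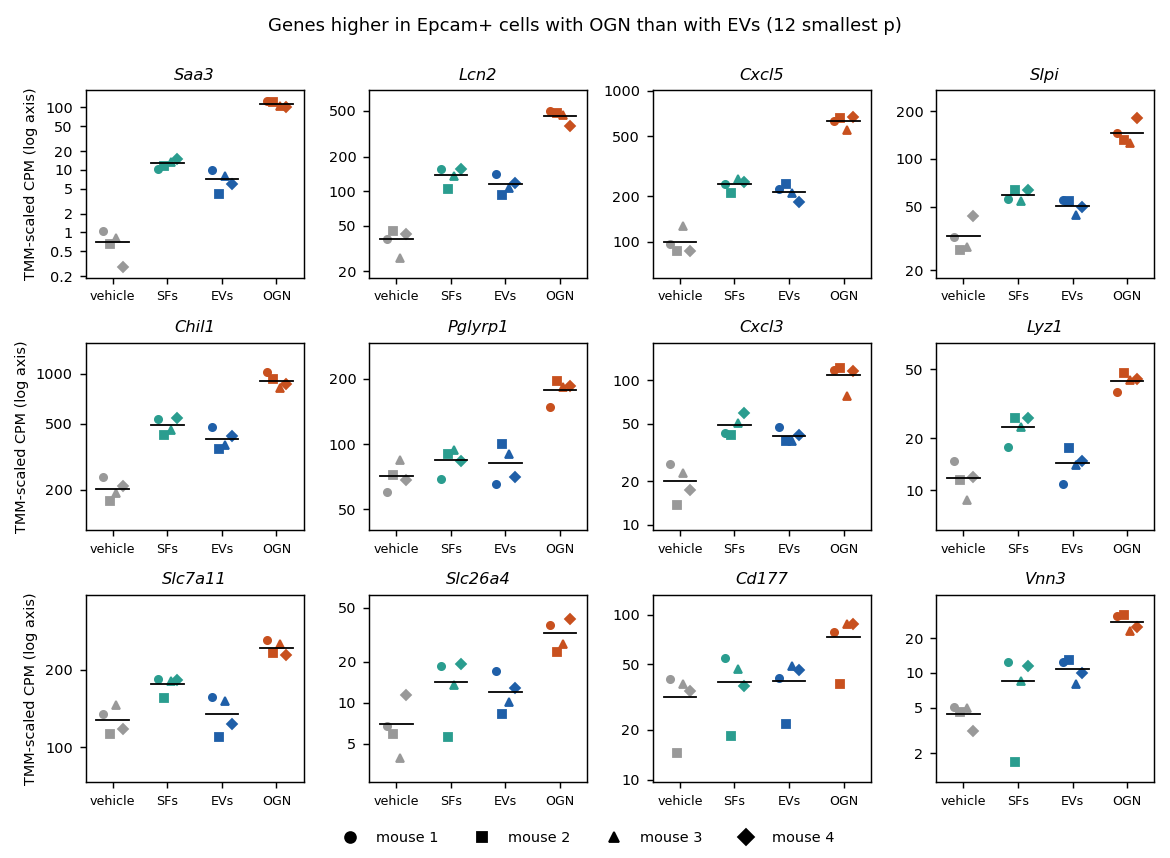
Levels of the 12 genes with the smallest p among those higher with OGN than with EVs, in each of the 16 Epcam+ libraries. The vertical axis is TMM-scaled CPM on a log scale, symbols are mice and black lines are means of 4 libraries. The OGN libraries lie above the EV libraries in 11 of the 12 genes, and in Cd177 the OGN library of mouse 2 (37.99 CPM) lies within the range of the EV libraries.

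The list of acute-phase and NF-kB response genes had 20 members tested, of which 10 were higher with OGN and 0 lower (1 lower at an unadjusted p under 0.05 in edgeR, and 0 called by DESeq2 after adjustment), with a median log2 fold change of 0.31. Over all genes tested the median was 0.0061 and 0.561% were higher. Beside Saa3, Lcn2 and Chil1, the higher members were Steap4, Sod2, Lrg1, Zc3h12a, Hp, Icam1 and Tnfaip3. Steap4, a metalloreductase induced by inflammatory cytokines, was at 26.9, 28.1, 31.7 and 24.2 CPM with OGN and 9.69, 13.6, 16.2 and 12.9 CPM with EVs (1.09 ± 0.15 SE, adjusted p = 0.00268). Sod2, the mitochondrial superoxide dismutase, was at 138, 148, 133 and 161 CPM with OGN and 91.02, 98.8, 94.9 and 83.6 CPM with EVs (0.65 ± 0.089 SE, adjusted p = 0.00248). The groups of both genes did not overlap.

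Genes that restrain NF-kB signals were among the members that were higher. Zc3h12a, which encodes the RNase Regnase-1 that cuts cytokine mRNA, was at 34.1, 39.7, 33.7 and 33.4 CPM with OGN and 19.2, 23.5, 19.5 and 18.4 CPM with EVs (0.81 ± 0.12 SE, adjusted p = 0.00361). Tnfaip3 encodes A20, a ubiquitin-editing inhibitor of NF-kB. Its groups overlapped, at 91.1, 100.2, 60.4 and 51.6 CPM with OGN and 52.997, 67.4, 47.4 and 43.7 CPM with EVs, but it was higher in every mouse (0.48 ± 0.10 SE, adjusted p = 0.0349). Without mouse as a term in the model, 7 of the 20 members were higher, and 6 to 10 were higher when 1 mouse was left out.

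Of 13 chemokine ligands tested, 4 were higher with OGN (Cxcl5, Cxcl3, Ccl20 and Cxcl1) and 2 were lower (Cxcl12 and Cx3cl1), with a median log2 fold change of 0.32. Cxcl5, a ligand of the neutrophil receptor CXCR2 that is made by lung epithelium, was at 632, 664, 553 and 672 CPM with OGN and 223, 239.6, 210.3 and 182 CPM with EVs. The 4 OGN values were all above the 4 EV values (2.95-fold, 1.56 ± 0.091 SE, adjusted p = 1.94e-06). Cxcl3, another CXCR2 ligand, was at 119, 122, 78.3 and 117 CPM with OGN and 47.7, 38.2, 37.8 and 41.6 CPM with EVs (1.37 ± 0.11 SE, adjusted p = 2.4e-05). Mouse 3 was the lowest of the OGN libraries for Cxcl3 and still lay above every EV library. Ccl20, which attracts CCR6-bearing lymphocytes and dendritic cells, was at 52.9, 72.3, 56.3 and 82.2 CPM with OGN and 33.2, 29.9, 32.3 and 30.9 CPM with EVs (1.03 ± 0.13 SE, adjusted p = 0.00129). Cxcl1, a CXCR2 ligand as well, was higher in mice 1 and 2 than in mice 3 and 4 under both treatments, at 67.4, 71.3, 29.9 and 29.8 CPM with OGN and 42.3, 34.99, 21.97 and 18.5 CPM with EVs (0.70 ± 0.12 SE, adjusted p = 0.00888). Within each mouse it was higher with OGN, and the call was lost without mouse 1, without mouse 2 and when mouse was left out of the model.

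Both chemokines that were lower had a higher mean CPM in CCL206 fibroblasts than in Epcam+ cells under vehicle. Cxcl12, which is made by stromal cells and binds CXCR4, was at 54.995, 48.4, 68.2 and 56.6 CPM with OGN and 99.4, 98.8, 141 and 144 CPM with EVs, a 2.099-fold difference without overlap (-1.07 ± 0.096 SE, adjusted p = 0.000101). Cx3cl1, the membrane-bound ligand fractalkine, was at 71.8, 77.3, 61.5 and 44.3 CPM with OGN and 104, 104, 86.4 and 75.6 CPM with EVs, which overlapped (-0.55 ± 0.090 SE, adjusted p = 0.007), and its call was lost without mouse 1 and without mouse in the model. Their mean plain CPM in vehicle-treated CCL206 cells was 5.37 times and 4.22 times that in vehicle-treated Epcam+ cells.

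Of 17 complement, mucosal and antimicrobial genes, 4 were higher (Slpi, Lyz1, Lyz2 and Ltf) and 1 was lower (C4b), with a median log2 fold change of 0.054. Slpi, a protease inhibitor that protects the airway from neutrophil elastase, was at 145, 132, 126 and 180.01 CPM with OGN and 54.9, 54.6, 44.2 and 49.9 CPM with EVs (2.86-fold, 1.52 ± 0.10 SE, adjusted p = 6.89e-06). Lyz1, a lysozyme, was at 37.1, 47.5, 43.6 and 43.7 CPM with OGN and 10.9, 17.5, 14.03 and 14.7 CPM with EVs (3.04-fold, 1.60 ± 0.13 SE, adjusted p = 2.4e-05). In both genes every OGN library was above every EV library. Lyz2, which is also an AT2 and macrophage gene, differed by 0.70 ± 0.077 SE (adjusted p = 0.000405). Lyz1 and Lyz2 are close copies, and the counting method was not given in the sources used here, so reads may have been split between them.

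Pglyrp1, a peptidoglycan-binding antibacterial protein, was among the 12 genes of smallest p. It was at 149, 195, 184 and 184 CPM with OGN and 65.2, 99.9, 90.3 and 70.7 CPM with EVs, and with vehicle at 60.3, 72.4, 84.4 and 68.6 CPM, which overlapped the EV libraries. The difference between OGN and EVs was 2.20-fold (1.14 ± 0.087 SE, adjusted p = 2.4e-05). Ltf, the iron-binding protein lactoferrin, ranged from 1317 to 2591 CPM with OGN and from 1023 to 1652 CPM with EVs, which overlapped (0.50 ± 0.11 SE, adjusted p = 0.0349). C4b, complement component 4, was at 23.5, 20.3, 21.6 and 17.3 CPM with OGN and 35.8, 38.4, 36.8 and 37.3 CPM with EVs (-0.84 ± 0.13 SE, adjusted p = 0.00425), and its mean CPM under vehicle was 6.73 times higher in CCL206 than in Epcam+ cells.

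A transporter and 2 cell surface proteins were also among the 12 genes of smallest p. Slc26a4, the anion exchanger pendrin, was at 37.3, 23.8, 26.96 and 41.2 CPM with OGN and 17.2, 8.29, 10.1 and 12.8 CPM with EVs (1.43 ± 0.15 SE, adjusted p = 0.000298). Vnn3, a vanin of the pantetheinase family, was at 31.3, 31.7, 23.005 and 25.1 CPM with OGN and 12.5, 12.9, 8.01 and 10.04 CPM with EVs (1.37 ± 0.15 SE, adjusted p = 0.000343). The groups of these 2 genes did not overlap. Cd177, a surface protein best known from neutrophils, was at 79.04, 37.99, 87.7 and 87.8 CPM with OGN and 41.3, 21.6, 48.6 and 46.5 CPM with EVs (0.88 ± 0.092 SE, adjusted p = 0.000309). Mouse 2 was lowest for Cd177 in all 4 treatments, and the call was lost without mouse in the model.

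Upstream sequence is shown for 5 of these genes, which were those whose window held a match to either motif below. Chil1 was searched as well and is not shown, as its window held neither. Cxcl5 had no window to search. The windows hold the 250 bases before the RefSeq start site of each gene on GRCm38.p6, written 5′ to 3′ on the strand of the gene. Capitals mark matches, on either strand, to GGGNNTTTCC, a form of the NF-kB motif, or to TTNNGCAA, a form of the C/EBP motif.
Cxcl3 (chr5:90785851-90786100, plus strand): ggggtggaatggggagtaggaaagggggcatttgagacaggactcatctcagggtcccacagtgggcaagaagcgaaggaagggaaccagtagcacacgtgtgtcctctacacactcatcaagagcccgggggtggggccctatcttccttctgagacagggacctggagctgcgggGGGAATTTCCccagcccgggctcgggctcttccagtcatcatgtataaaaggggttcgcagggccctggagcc
Pglyrp1 (chr7:18884440-18884689, plus strand): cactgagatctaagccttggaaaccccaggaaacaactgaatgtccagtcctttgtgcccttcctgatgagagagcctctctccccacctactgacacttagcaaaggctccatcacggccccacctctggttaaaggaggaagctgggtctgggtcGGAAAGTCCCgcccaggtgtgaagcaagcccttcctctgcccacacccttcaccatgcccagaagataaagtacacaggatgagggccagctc
Saa3 (chr7:46715677-46715926, minus strand): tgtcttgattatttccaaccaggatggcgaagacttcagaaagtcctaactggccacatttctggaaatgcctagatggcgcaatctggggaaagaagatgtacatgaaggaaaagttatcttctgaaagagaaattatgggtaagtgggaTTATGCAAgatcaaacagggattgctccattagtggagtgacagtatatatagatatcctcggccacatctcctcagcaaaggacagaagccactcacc
Lcn2 (chr2:32387740-32387989, minus strand): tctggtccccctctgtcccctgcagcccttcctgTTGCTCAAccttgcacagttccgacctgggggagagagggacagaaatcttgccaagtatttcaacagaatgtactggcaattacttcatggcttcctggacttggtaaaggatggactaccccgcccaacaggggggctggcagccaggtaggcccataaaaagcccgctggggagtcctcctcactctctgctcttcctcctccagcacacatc
Slpi (chr2:164356508-164356757, minus strand): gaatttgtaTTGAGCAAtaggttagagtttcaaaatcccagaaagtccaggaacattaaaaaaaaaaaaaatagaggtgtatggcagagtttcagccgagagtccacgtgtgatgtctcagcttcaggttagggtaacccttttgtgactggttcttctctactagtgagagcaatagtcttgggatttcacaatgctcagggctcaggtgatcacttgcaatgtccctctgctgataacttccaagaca

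The NF-kB form was found once in Cxcl3, beginning 73 bases before the start, and once in Pglyrp1, beginning 93 bases before it on the opposite strand. It was present in 378 of 27025 windows of the same length in the RefSeq table (1.4%). The C/EBP form was found once each in Saa3, Lcn2 and Slpi, beginning 99, 216 and 241 bases before the start, and in 2582 of all windows (9.55%). The window of Chil1 held neither, and Cxcl5 was not matched. These matches describe letters in a window, and binding was not measured. For Saa3 and Chil1 the bases checked after the listed start were not found in a transcript of the gene, so distances from that start are uncertain.

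Of 22 interferon response and MHC class I genes, 0 were higher and 1, Tap1, was lower in edgeR's test (median log2 fold change -0.11). At an unadjusted p under 0.05 there were 0 higher and 5 lower, and DESeq2 called 0. Tap1, the peptide transporter of the MHC class I pathway, was at 13.3, 13.04, 15.1 and 13.1 CPM with OGN and 18.8, 25.1, 21.1 and 23.05 CPM with EVs (-0.67 ± 0.16 SE, adjusted p = 0.0495). Its call was lost when any of the 4 mice was left out. Of 6 MHC class II genes, which AT2 cells express, 0 passed edgeR's test (0 at an unadjusted p under 0.05, and 0 called by DESeq2 after adjustment), with a median of -0.22, and Cd74, the invariant chain, had a log2 fold change of 0.13 ± 0.10 SE.

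Among metabolic and stress response genes, the members that were higher with OGN were spread over several lists. Slc7a11, the cystine-importing subunit of the xCT exchanger that feeds glutathione synthesis, was at 261, 233, 253 and 229.6 CPM with OGN and 157, 109, 151 and 123 CPM with EVs, without overlap (1.81-fold, 0.86 ± 0.082 SE, adjusted p = 0.000172). With vehicle it was at 135, 113, 145 and 117 CPM, within the range of the EV libraries. Its partner subunit Slc3a2 was at 236, 234, 224 and 293 CPM with OGN and 212, 217, 187 and 229 CPM with EVs (0.22 ± 0.074 SE, adjusted p = 0.206). Slc3a2 did not pass the test. Slc7a11 was the only one of 28 NRF2 target, glutathione and peroxide-handling genes to pass edgeR's test (median log2 fold change 0.092, 20 above 0). At an unadjusted p under 0.05 in edgeR, 7 were higher and 0 lower. DESeq2, and edgeR without mouse 4, each called 2 higher and 0 lower after adjustment. Gclc, which catalyzes the first step of glutathione synthesis, had a log2 fold change of 0.24 ± 0.079 SE (adjusted p = 0.206) and passed as higher in DESeq2 only.

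Of 28 ATF4 target and amino acid metabolism genes, Slc7a11 and Atf3 were higher and 0 were lower (median 0.023; 3 lower at an unadjusted p under 0.05 in edgeR, and 0 called by DESeq2 after adjustment). Atf3, a stress-induced transcription factor, was at 91.6, 111, 34.1 and 52.7 CPM with OGN and 42.6, 72.7, 30.7 and 32.5 CPM with EVs (0.63 ± 0.13 SE, adjusted p = 0.0277). The 4 values of each group overlapped, with mice 1 and 2 above mice 3 and 4 under OGN, and the call was lost without mouse 1, without mouse 2 and without mouse in the model. Ddit3, the ATF4 target CHOP, lay on the other side of 0 at -0.64 ± 0.201 SE and did not pass the test (adjusted p = 0.174).

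Of 24 glycolysis and HIF-1 target genes, 3 were higher and 0 lower (14 and 1 at an unadjusted p under 0.05 in edgeR, and 5 and 0 called by DESeq2 after adjustment), and the median log2 fold change was 0.21 with 20 of the 24 above 0. Slc2a1, the glucose transporter GLUT1, was at 259.8, 238, 249.8 and 256 CPM with OGN and 186, 192, 178 and 165 CPM with EVs (0.48 ± 0.077 SE, adjusted p = 0.00627). Bnip3, a mitophagy receptor induced by hypoxia, was at 119, 106, 92.97 and 112 CPM with OGN and 84.9, 85.6, 70.03 and 71.98 CPM with EVs (0.46 ± 0.085 SE, adjusted p = 0.0139). Ldha, the lactate dehydrogenase subunit, was at 2907, 3231, 2832 and 3788 CPM with OGN and 2389, 2488, 2306 and 2469.7 CPM with EVs (0.39 ± 0.089 SE, adjusted p = 0.0453). None of the 3 genes overlapped between the groups. Ldha was highest in the OGN library of mouse 4. The calls of all 3 were lost without mouse 1 and without mouse 3, where 0 members of the list passed, and that of Ldha also without mouse 2. Vegfa, the endothelial growth factor and a further HIF-1 target, did not pass the test (-0.26 ± 0.083 SE).

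Of 18 iron genes, 5 were higher and 1 was lower (median -0.0075). The higher members were Lcn2 and Steap4, described above, the ferroxidase ceruloplasmin Cp (0.43 ± 0.082 SE), the iron importer Slc11a2 (0.39 ± 0.082 SE) and the zinc and iron importer Slc39a8 (0.35 ± 0.078 SE). Slc40a1, the iron exporter ferroportin, was the member that was lower, at 6.01, 5.77, 4.69 and 5.29 CPM with OGN and 14.1, 14.3, 10.7 and 11.2 CPM with EVs (-1.201 ± 0.21 SE, adjusted p = 0.0107). The number of members higher fell to 2 when mouse 1, 2 or 3 was left out, as Cp, Slc11a2 and Slc39a8 each lost their call, and Slc40a1 lost its call without mouse 1 and without mouse 3. In vehicle libraries Slc40a1 had 3.92 times as much CPM in CCL206 as in Epcam+ cells.

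No member of the lists of sterol and fatty acid synthesis (25 tested), endoplasmic reticulum folding (19) or cell cycle and DNA replication (30) passed edgeR's test. At an unadjusted p under 0.05 in edgeR, 3 and 2 members of the first 2 lists were higher, and 2 cell cycle members were lower. DESeq2 called 0 in each of the lists. Their median log2 fold changes were 0.079, 0.092 and 0.065. Hmgcs1, an early enzyme of sterol synthesis, had 0.16 ± 0.077 SE, the chaperone Calr 0.16 ± 0.085 SE, and Pcna, the clamp of replicating DNA, 0.18 ± 0.082 SE.

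Of 15 p53 targets, 3 were lower with OGN and 0 higher (1 higher at an unadjusted p under 0.05 in edgeR, and 0 called by DESeq2 after adjustment), with a median log2 fold change of -0.17. Cdkn1a, the cell cycle inhibitor p21, was at 205, 197, 247 and 208 CPM with OGN and 275, 284, 265 and 306 CPM with EVs, without overlap (-0.40 ± 0.087 SE, adjusted p = 0.0362). Mdm2, the ubiquitin ligase that degrades p53, was at 201, 193, 174 and 200.3 CPM with OGN and 266, 286, 211 and 227 CPM with EVs (-0.36 ± 0.081 SE, adjusted p = 0.0428). Ccng1, cyclin G1, was the third (-0.32 ± 0.073 SE, adjusted p = 0.0462). Under vehicle all 3 had more CPM in CCL206 than in Epcam+ cells, by 1.799, 3.103 and 2.06 times. The calls of all 3 were lost without mouse 1 or without mouse 2, those of Mdm2 and Ccng1 also without mouse 3 or with no mouse term in the model.

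Of 16 AT2 markers, 4 were higher with OGN and 0 lower (0 lower at an unadjusted p under 0.05 in edgeR, and 0 called by DESeq2 after adjustment), with a median log2 fold change of 0.12. Sftpa1, surfactant protein A, was at 1575, 1847, 1490.1 and 2022 CPM with OGN and 1209, 1142, 1081 and 1170.2 CPM with EVs (0.58 ± 0.091 SE, adjusted p = 0.00513). Sftpd, surfactant protein D, was at 1611, 1860.4, 1437 and 2578 CPM with OGN and 1247, 1417, 1162 and 1425 CPM with EVs (0.48 ± 0.10 SE, adjusted p = 0.028). These are the 2 surfactant proteins of the collectin family, which bind microbes. The other 2 members that were higher were Fabp5, a fatty acid binding protein, at 0.72 ± 0.10 SE, and the fatty acid transporter Cd36 at 0.44 ± 0.079 SE. The calls of Sftpd and Cd36 were lost when mouse 1, 2 or 3 was left out or mouse was not in the model, which left 2 members higher.

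The 2 hydrophobic surfactant proteins, which lower surface tension, did not pass the test. Sftpb was at 3562, 3419, 3810.5 and 4858 CPM with OGN and 3589, 3861, 3349.5 and 4214 CPM with EVs (0.050 ± 0.093 SE, adjusted p = 0.879). Sftpc, the most specific AT2 marker, was at 3928, 3783, 3373 and 4055 CPM with OGN and 4464, 3918, 3406 and 4719 CPM with EVs (-0.12 ± 0.086 SE, adjusted p = 0.618). The groups of both overlapped. The summed level of the 16 AT2 markers was 13943 to 17875 CPM with OGN and 12258 to 15119 with EVs.

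Of 12 AT1 markers 1 was lower, and it is not particular to AT1 cells. Cav1, the caveolin of AT1 cells, endothelium and fibroblasts, was at 76.6, 78.97, 72.2 and 49.6 CPM with OGN and 133, 128, 121 and 94.2 CPM with EVs (-0.79 ± 0.083 SE, adjusted p = 0.000314), and its vehicle CPM was 2.49 times higher in CCL206 than in Epcam+ cells. Emp2 (0.048 ± 0.079 SE), Lmo7 (-0.063 ± 0.074 SE) and Gprc5a (0.015 ± 0.076 SE), all of them membrane or junction genes of AT1 cells, did not pass the test. At an unadjusted p under 0.05 in edgeR, 4 AT1 markers were lower and 0 higher (median log2 fold change -0.081, 5 above 0). With all 16 libraries in the model, or without mouse 4, 2 were called lower. Mean plain CPM of Col4a3 was 10.1 with OGN and 18.1 with EVs, and that of Akap5 73.2 and 87.9. Both had less CPM in CCL206 than in Epcam+ cells under each treatment. Of 15 markers of transitional alveolar cells, Tnip3 and Nupr1 were higher and Cdkn1a lower, and the call of Nupr1 was lost without mouse 1, without mouse 3 and without mouse in the model. Tnip3, another inhibitor of NF-kB, was at 147, 157, 163 and 191 CPM with OGN and 103, 93.7, 106 and 117 CPM with EVs (0.65 ± 0.077 SE, adjusted p = 0.000818).

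Calls among airway genes came from short lists, and over all genes tested 1.87% were differentially expressed, 0.561% higher and 1.31% lower. Of 6 basal cell markers only Krt15, a keratin of basal cells, passed the test, at 233, 261, 175 and 103 CPM with OGN and 320.5, 304, 240.2 and 149 CPM with EVs (-0.42 ± 0.078 SE, adjusted p = 0.0146). Its groups overlapped, and it was lower with OGN in each mouse. The call of Krt15 was lost without mouse 1, without mouse 3 and without mouse in the model. Krt5 had a log2 fold change of 0.12 ± 0.11 SE and did not pass. Of 13 club, goblet and ciliated cell markers, Hp, the hemoglobin-binding haptoglobin that is also an acute-phase protein, was higher (0.52 ± 0.092 SE) and Ces1g lower (-0.85 ± 0.16 SE). Hp lost its call without mouse 1, without mouse 3 and without mouse in the model. Ces1g lost its call without mouse 1, without mouse 2 and with counts thinned to the smallest library. Without mouse 1, 0 members of this list passed. Of 19 xenobiotic and aldehyde metabolizing enzymes, 3 were lower, namely the carboxylesterases Ces1g and Ces1f (-0.99 ± 0.22 SE) and the epoxide hydrolase Ephx1 (-0.40 ± 0.087 SE). Without mouse 1 0 of these 3 enzymes passed, and 1 did without mouse 2 or without mouse 3. The carboxylesterases are a family of close copies, whose reads may have been split.

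**Figure D2:**
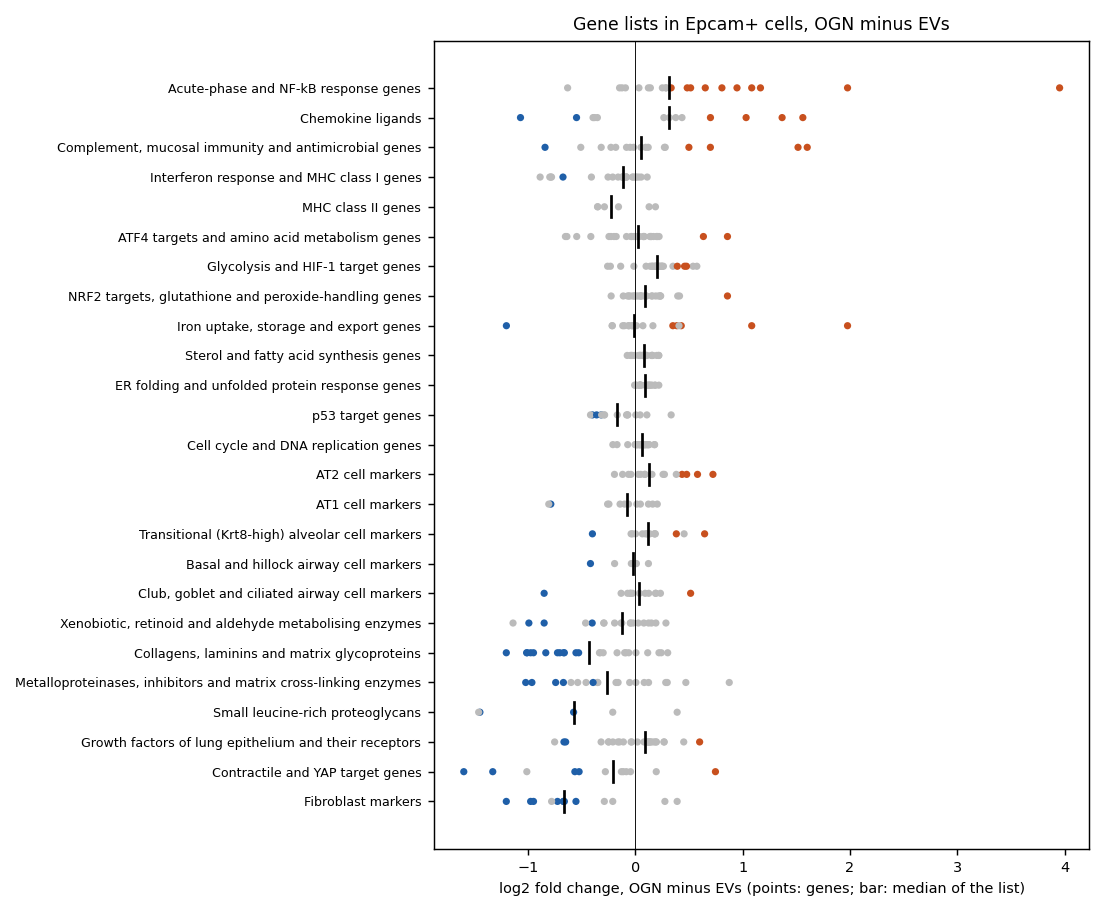
Log2 fold changes of OGN minus EVs in Epcam+ cells for the genes of 25 lists. Each point is a gene, orange if higher, blue if lower and grey if it did not pass the test, and the black bar is the median of the list. The acute-phase and NF-kB list has 10 orange and 0 blue points, and the matrix list has 12 blue and 0 orange points.

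Among the genes that were lower with OGN were many of the extracellular matrix, its remodelling and the contractile fibroblast. The matrix list, which held collagens, laminins and matrix glycoproteins and also the intermediate filament gene Vim, had 24 members tested, of which 12 (Vim among them) were lower and 0 higher (3 higher at an unadjusted p under 0.05 in edgeR, and 0 called by DESeq2 after adjustment), with a median log2 fold change of -0.43, while over all genes tested 1.31% were lower. The ratio of CCL206 to Epcam+ CPM under vehicle ran from 0.831 (Col12a1) to 5.3002 (Fn1) over these 12. Col6a1 and Col6a2 encode 2 chains of collagen VI, a microfibrillar collagen that surrounds cells. Col6a1 was at 77.6, 63.1, 81.2 and 84.2 CPM with OGN and 129.8, 159.98, 136 and 168 CPM with EVs (-0.95 ± 0.10 SE, adjusted p = 0.0004). Col6a2 was at 18.6, 19.6, 22.2 and 15.3 CPM with OGN and 39.6, 51.1, 41.96 and 43.5 CPM with EVs (2.30-fold, -1.202 ± 0.13 SE, adjusted p = 0.000422). For both genes the 4 OGN libraries lay below the 4 EV libraries. Col6a3 differed by -0.55 ± 0.081 SE in the same direction.

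Fibrillar collagens were lower as well. Col3a1 was at 193, 181, 242 and 332 CPM with OGN and 392, 592, 403 and 459 CPM with EVs (-0.97 ± 0.15 SE, adjusted p = 0.0045). Col1a1, a chain of collagen I, was at 338, 299, 418 and 528 CPM with OGN and 576, 777, 581 and 648 CPM with EVs (-0.72 ± 0.14 SE, adjusted p = 0.0163). The call of Col1a1 was lost in DESeq2 and without mouse 1. Fn1, the adhesive glycoprotein fibronectin, was at 919.7, 767, 1107 and 754 CPM with OGN and 1265, 1161, 1677 and 1491 CPM with EVs (-0.66 ± 0.096 SE, adjusted p = 0.00318). The other members that were lower were Col1a2, Col5a1, Col5a2, Col12a1, Fbn1 (fibrillin of elastic microfibrils) and Vim, with log2 fold changes from -1.01 (Col12a1) to -0.53 (Vim).

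**Figure D3:**
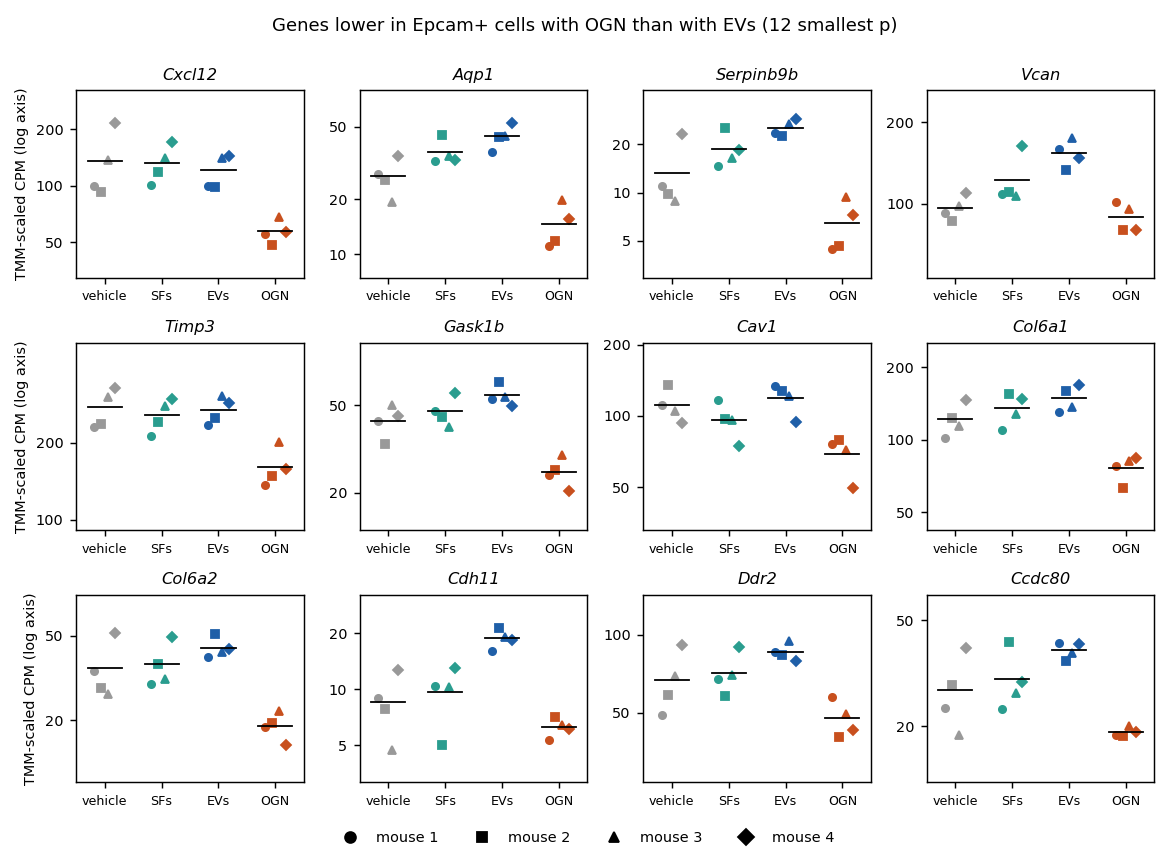
Levels of the 12 genes with the smallest p among those lower with OGN than with EVs, in each of the 16 Epcam+ libraries. The vertical axis is TMM-scaled CPM on a log scale, symbols are mice and black lines are means of 4 libraries. In all 12 genes the OGN libraries lie below the EV libraries, as for Serpinb9b at 4.42 to 9.45 CPM against 22.6 to 28.9 CPM.

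Among the 12 genes of smallest p were further matrix and cell surface genes of mesenchyme. Vcan, the large proteoglycan versican, was at 102, 80.3, 95.4 and 80.3 CPM with OGN and 159, 133, 175 and 147 CPM with EVs (-0.78 ± 0.080 SE, adjusted p = 0.000297). Ccdc80, a secreted matrix protein, was at 18.6, 18.4, 20.1 and 18.9 CPM with OGN and 40.96, 34.99, 37.6 and 40.8 CPM with EVs (-1.02 ± 0.12 SE, adjusted p = 0.000843). Neither gene overlapped between the groups. Ddr2, a receptor for fibrillar collagen, was at 57.8, 40.6, 49.6 and 42.9 CPM with OGN and 85.4, 83.6, 94.4 and 79.1 CPM with EVs (-0.85 ± 0.10 SE, adjusted p = 0.000735). Cdh11, the cadherin of fibroblasts, was at 5.305, 7.08, 6.45 and 6.13 CPM with OGN and 16.1, 21.4, 19.2 and 18.4 CPM with EVs (3.004-fold, -1.59 ± 0.18 SE, adjusted p = 0.000458). Again every OGN library lay below every EV library.

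Aqp1, a water channel of endothelium and other cells, was at 11.1, 11.7, 19.8 and 15.6 CPM with OGN and 36.1, 43.97, 44.4 and 52.6 CPM with EVs (3.01-fold, -1.59 ± 0.15 SE, adjusted p = 0.000125). Serpinb9b, a granzyme-inhibiting type of serpin, was at 4.42, 4.66, 9.45 and 7.24 CPM with OGN and 23.6, 22.6, 26.7 and 28.9 CPM with EVs (3.94-fold, -1.98 ± 0.19 SE, adjusted p = 0.000189). Gask1b, a Golgi-associated protein, was at 24.2, 25.3, 29.8 and 20.3 CPM with OGN and 53.3, 63.99, 54.4 and 49.7 CPM with EVs (-1.14 ± 0.12 SE, adjusted p = 0.000297). Serpinb9b had the largest difference of the 12 named genes that were lower with the smallest p.

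Of 20 metalloproteinases, inhibitors and cross-linking enzymes, 5 were lower and 0 higher (3 higher at an unadjusted p under 0.05 in edgeR, and 0 called by DESeq2 after adjustment), with a median of -0.26. Timp3, a matrix-bound inhibitor of metalloproteinases, was at 137, 148, 202 and 158 CPM with OGN and 234, 249, 304 and 287 CPM with EVs (-0.74 ± 0.076 SE, adjusted p = 0.000297). Mmp2, a gelatinase, was at 81.7, 69.3, 84.4 and 96.1 CPM with OGN and 117, 138, 131 and 140.2 CPM with EVs (-0.67 ± 0.093 SE, adjusted p = 0.00267). The groups of both genes did not overlap. The lysyl oxidases Loxl2 (-0.96 ± 0.18 SE) and Loxl3 (-1.02 ± 0.18 SE) and the transglutaminase Tgm2 (-0.39 ± 0.085 SE), which cross-link matrix, were the remaining members that were lower. All 3 lost their call without mouse 1, which left 2 members lower, and Loxl2 and Tgm2 also without mouse 3 and without mouse in the model, which left 3.

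The gene of the ligand itself was lower in cells that received the recombinant protein. Mouse Ogn was at 2.48, 4.28, 4.396 and 6.41 CPM with OGN and 9.396, 7.37, 14.8 and 15.2 CPM with EVs, without overlap (2.73-fold, -1.45 ± 0.25 SE, adjusted p = 0.0106). With vehicle it was at 7.69, 6.55, 9.65 and 16.7 CPM, above the OGN libraries. Its mean plain CPM in vehicle-treated CCL206 cells was 4.71 times that in vehicle-treated Epcam+ cells. Of 5 small leucine-rich proteoglycans tested, Ogn and Bgn were lower. Bgn, biglycan, was at 343, 318, 366 and 246 CPM with OGN and 469, 406, 488 and 523 CPM with EVs (-0.57 ± 0.11 SE, adjusted p = 0.018). Prelp was listed at 1.06 to 3.44 CPM with OGN and 5.98 to 7.78 CPM with EVs and did not pass (adjusted p = 0.0689). Dcn, decorin, lay on the other side of 0, at 289, 245, 223 and 201 CPM with OGN and 167, 178, 182 and 196 CPM with EVs. It did not pass the test (0.39 ± 0.11 SE, adjusted p = 0.102), although its groups did not overlap. The calls of Ogn and Bgn were lost without mouse 1 and without mouse 3, where 0 members of the list were lower, and that of Ogn also with counts thinned to the smallest library. Dcn passed as higher without mouse 4, with the trend in transcript length removed, and in DESeq2. Prelp passed as lower without mouse 4, without mouse in the model, with all 16 libraries in the model, and in DESeq2.

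Of 12 contractile and YAP target genes, 4 were lower and 1 was higher (median -0.20). Acta2, smooth muscle actin, was at 2.83, 4.84, 5.93 and 6.69 CPM with OGN and 13.4, 16.8, 14.6 and 15.96 CPM with EVs (3.03-fold, -1.60 ± 0.23 SE, adjusted p = 0.00292). Ankrd1, a YAP target, was at 5.66, 7.08, 6.23 and 14.2 CPM with OGN and 18.1, 20.9, 15.4 and 25.7 CPM with EVs (-1.33 ± 0.19 SE, adjusted p = 0.00288). Cald1, which binds actin, and the receptor kinase Axl differed by -0.56 ± 0.077 SE and -0.52 ± 0.090 SE. In contrast Ccn1, a secreted matricellular protein and a YAP target as well, was at 353, 444, 335 and 411 CPM with OGN and 207, 222, 238 and 244 CPM with EVs (0.75 ± 0.087 SE, adjusted p = 0.000709). The 2 YAP targets Ankrd1 and Ccn1 moved in opposite directions in the Epcam+ libraries of every mouse. Under vehicle the ratio of CCL206 to Epcam+ CPM was 4.42 for Ankrd1, 2.78 for Acta2, 3.71 for Axl and 2.27 for Cald1, but 0.608 for Ccn1. In CCL206 cells both YAP targets were lower with OGN. There mean plain CPM was 27.0 with OGN and 98.9 with EVs for Ankrd1, and 69.9 and 145 for Ccn1.

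Of 28 growth factors and receptors of lung epithelium, 1 was higher and 2 were lower (median 0.092). Hgf, hepatocyte growth factor, which fibroblasts supply to epithelium through the receptor Met, was at 43.9, 35.4, 36.7 and 38.7 CPM with OGN and 26.4, 19.1, 29.4 and 26.5 CPM with EVs (0.60 ± 0.13 SE, adjusted p = 0.0301). Wnt5a, a non-canonical Wnt ligand, was at 21.6, 16.4, 20.1 and 14.5 CPM with OGN and 31.4, 24.9, 33.8 and 24.5 CPM with EVs (-0.66 ± 0.13 SE, adjusted p = 0.0206). Inhba, a subunit of activin A, was at 29.7, 35.2, 33.9 and 21.2 CPM with OGN and 43.9, 50.4, 49.01 and 43.6 CPM with EVs (-0.65 ± 0.12 SE, adjusted p = 0.0139). The groups of these 3 genes did not overlap. The calls of Hgf and Wnt5a were lost without mouse in the model and when mouse 1, 2 or 3 was left out. That of Inhba was lost without mouse 1 and without mouse 3, where 0 members of the list passed, and 0 passed with counts thinned to the smallest library.

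Most of the fibroblast markers tested were lower with OGN. Of 13 fibroblast markers tested, 8 were lower with OGN and 0 higher (1 higher at an unadjusted p under 0.05 in edgeR, and 1 called by DESeq2 after adjustment), with a median log2 fold change of -0.67. Their summed level was 3115, 2664, 3375 and 3245 CPM in the OGN libraries and 4270.3, 4889, 4897 and 4945 CPM in the EV libraries, without overlap. The vehicle libraries summed to 3024 to 4347 CPM and the SF libraries to 3480 to 4723 CPM. Of the 8 that were lower, 7 are also in the matrix list, so the 2 counts are not separate. Of the macrophage and leukocyte list, 3 of 15 markers were in the table, with summed levels of 714 to 903 CPM under OGN and 479 to 541 CPM under EVs. Those 3 were Lyz2 and Cd14, which were higher, and Cd68 (-0.15 ± 0.29 SE), which did not pass. The only endothelial marker tested, Vwf, and both mesothelial markers, Msln and Upk1b, did not pass edgeR's test (0 at an unadjusted p under 0.05, and 0 called by DESeq2 after adjustment). Cd14, a co-receptor for lipopolysaccharide, was at 381, 461, 415 and 548 CPM with OGN and 248, 323, 295 and 289.6 CPM with EVs (0.64 ± 0.085 SE, adjusted p = 0.00214).

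**Figure D4:**
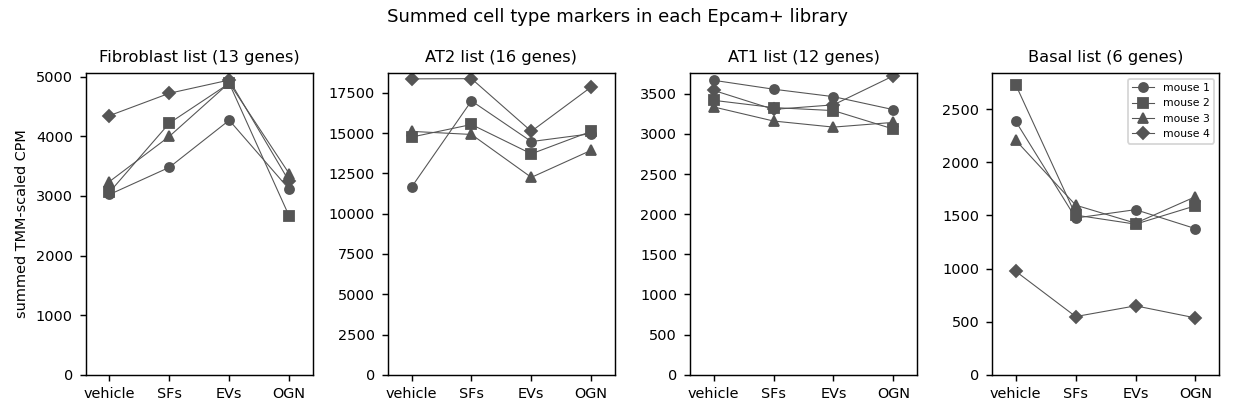
Summed TMM-scaled CPM of 4 cell type marker lists in each Epcam+ library, with lines joining the 4 libraries of a mouse and vertical axes from 0. The fibroblast sum is 2664 to 3375 CPM with OGN and 4270.3 to 4945 CPM with EVs, while the AT2, AT1 and basal sums of these groups overlap.

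The same shift was seen when genes were grouped by where their RNA was found under vehicle. Of the 152 genes that were lower with OGN, 145 (95.4%) had a higher mean CPM in vehicle-treated CCL206 cells than in vehicle-treated Epcam+ cells, and of the 65 that were higher 17 (26.2%) did, against 49.6% of all genes tested. Among the 588 genes with at least 4-fold more CPM in CCL206 cells, 78 were lower and 7 higher, and the median log2 fold change was -0.45. Among the 756 genes with at least 4-fold more in Epcam+ cells, 1 was lower and 28 were higher, with a median of 0.12. Between these bounds 67 were lower and 10 higher of 5158 genes on the CCL206 side (median -0.059), and 6 lower and 20 higher of 5079 on the Epcam+ side (median 0.064). The vehicle libraries that set these classes were not part of the test.

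**Figure D5:**
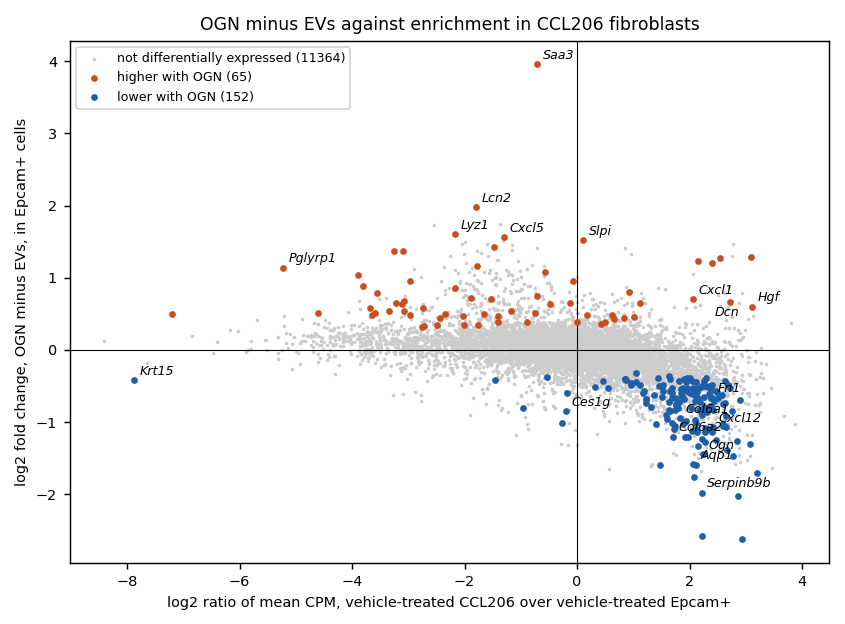
Log2 fold change of OGN minus EVs in Epcam+ cells, against the log2 ratio of mean CPM in vehicle-treated CCL206 over vehicle-treated Epcam+ libraries, for 11581 genes. Of the 152 genes lower with OGN (blue) 145 lie right of 0, and of the 65 higher (orange) 17 do.

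A few genes went against this grouping, and they are named here after their values were seen. The genes that were higher with OGN in the CCL206 class of at least 4-fold included Hgf, Cxcl1, Adamts7, Lilrb4b, Calcrl and Npr3. Hgf and Cxcl1 were also higher with OGN in CCL206 cells of each mouse. There Hgf was at 277, 299, 282 and 314 plain CPM with OGN and 126, 84.8, 131 and 45.8 CPM with EVs. Cxcl1 was at 262, 266, 74.8 and 111 CPM with OGN and 127, 69.0, 37.7 and 37.9 CPM with EVs. For the remaining genes CCL206 values by treatment are not given here. Adamts7, a metalloproteinase, had a log2 fold change of 1.27 ± 0.17 SE. The 7 genes that were lower with OGN and at least as abundant in Epcam+ cells were Krt15, Ces1g, Col12a1, Hc, Mme, Cavin2 and Ndnf. Mme, the peptidase neprilysin, had -0.60 ± 0.11 SE, and Hc, complement component 5, -0.81 ± 0.14 SE.

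The mean log2 CPM of the fibroblast markers was 6.61 to 6.86 in OGN libraries and 7.17 to 7.37 in EV libraries, so it separated the groups without overlap. With this level as a further term in edgeR's model, a choice made after the data were seen, 0 genes were differentially expressed and 239 had an unadjusted p under 0.05. Saa3 then had a log2 fold change of 2.53 ± 0.46 SE, Lcn2 1.57 ± 0.42 SE, Cxcl5 1.39 ± 0.35 SE and Slpi 1.53 ± 0.40 SE. Cxcl12 had -0.75 ± 0.36 SE and Serpinb9b -1.75 ± 0.77 SE. Col6a1, which is one of the markers, had -0.12 ± 0.29 SE. With 8 libraries, treatment and fibroblast level cannot be told apart in this design.

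CCL206 libraries of the same cultures hold values for the genes that led the comparison. Saa3 was at 314, 249, 245 and 264 plain CPM in OGN-treated CCL206 cells, above its levels in OGN-treated Epcam+ cells. In EV-treated CCL206 cells Saa3 was at 6.76, 17.3, 10.7 and 12.5 CPM. The EV-treated CCL206 libraries of mice 2 and 4 stood apart from the rest. Lcn2 was at 411, 373, 393 and 326 CPM in OGN-treated CCL206 cells, with a mean that was 0.844 times that in OGN-treated Epcam+ cells. Pglyrp1 and Lyz1 were low in CCL206 cells under OGN, with means of 0.0609 and 0.0912 times those of Epcam+ cells. Slpi and Sod2 had means of 1.67 and 1.51 times those of Epcam+ cells, and Cxcl5 and Chil1 0.460 and 0.377 times. Under vehicle the ratio of CCL206 to Epcam+ CPM was 0.611 for Saa3 and 0.917 for Sod2, against 2.43 and 1.51 under OGN. The grouping by population above used vehicle ratios only. Mouse Ogn was at 19.1, 14.8, 17.7 and 22.4 CPM in OGN-treated and at 32.2, 36.2, 32.1 and 20.99 CPM in EV-treated CCL206 cells. These groups overlapped, and in mouse 4 the OGN value was the higher one. The part that RNA from remaining fibroblasts had in the Epcam+ values was not tested beyond the fit with the fibroblast level.

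The vehicle libraries set a background for both directions. Of the 65 genes that were higher with OGN, the vehicle mean lay beyond the EV mean on the side away from OGN in 50, between the means of EVs and OGN but nearer to EVs in 12, nearer to OGN in 2, and beyond OGN in 1. Of the 152 that were lower, the vehicle mean lay beyond EVs in 15, between but nearer to EVs in 72, between but nearer to OGN in 62, and beyond OGN in 3. Fn1 was an example of a vehicle mean between the means of the groups, at 904, 913, 1003 and 1188 CPM with vehicle. Vcan was another, at 92.6, 86.8, 98.6 and 109 CPM with vehicle. For both genes the vehicle libraries overlapped the OGN libraries. For Cxcl12 and Timp3 the vehicle libraries lay near the EV libraries, with means of 136 ± 56.3 and 275 ± 48.6 CPM against 121 ± 25.2 and 269 ± 32.7 CPM with EVs (SD, n = 4).

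Longer transcripts had lower fold changes, as a trend over genes (Spearman's rho = -0.208 of log2 fold change with transcript length; genes are not independent replicates). Rn18s-rs5, a ribosomal RNA gene, was itself among the genes that were higher with OGN (0.50 ± 0.10 SE). With the trend in length removed, 243 genes passed the test, and these held 209 of the 217. The part of RNA quality or rRNA removal in these differences was not tested.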

How the data were processed

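Sequencing covered 32 libraries of 8 groups, from Epcam+ cells and CCL206 fibroblasts separated again after coculture. Per the labels, reads were trimmed with Trimmomatic 0.30 and assigned to GRCm39 (the study's methods name GRCm38 patch 6), and the aligner, counter and annotation were not given in the sources used here. The values that the authors deposited are raw read counts for 11818 genes, not normalized, and every gene has at least 1 count in every library.

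The 8 OGN and EV libraries of Epcam+ cells were fitted with edgeR 4.0.16 (R 4.3.3): filterByExpr kept 11581 genes, counts were scaled by TMM, and the two-sided quasi-likelihood F test used mouse and treatment, with Benjamini-Hochberg adjustment over all genes and a threshold of 0.05. The SE was taken as the size of the log2 fold change over the root of its F value. Levels are CPM scaled by TMM over the 16 Epcam+ libraries, ratios to CCL206 use plain CPM. Mouse numbers pair libraries of the same animal per the labels, and residuals of same-mouse libraries correlated at -0.00798 to 0.359, against -0.357 to 0.268 for libraries of different mice. No replicate pair agreed within sampling noise (12 pairs, chi-square of at least 4.95 for each degree of freedom).

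The comparison, members and gene lists were chosen with earlier results of these data known. Named genes were the 12 of smallest p in each direction that passed (provisional gene models passed over), up to 4 members of smallest p and every called member of each list, and genes the study names. Of the genes of the table, 11621 (98.3%) had a GENCODE vM39 transcript length. Upstream windows came from RefSeq (GRCm38.p6), where 6 of 7 genes were listed, and used the first start listed for each gene. For Saa3 and Chil1 the bases checked after that start were not found in a GENCODE transcript of the gene. The fit was tested on simulated counts. Alternatives were DESeq2 1.42.0, RLE scaling, other filters, thinning, all 16 libraries, no mouse term, removal of the length trend, glmTreat against 1.2-fold, leaving out each mouse, and, added after seeing the data, the fibroblast level as a covariate.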

Additional observations from a re-analysis of the deposited data

Results flagged for a closer look

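Among 204 groups of 4 libraries (102 named genes in OGN and EV libraries), 6 had a library far from the other 3 by Dixon's test, where chance alone gives about 1 in 20. All 6 were OGN libraries. Cxcl3 in mouse 3 was at 78.3 CPM against 117 to 122 CPM in the other OGN libraries. Slc3a2 in mouse 4 was at 293 CPM against 224 to 236 CPM, and Ankrd1 in mouse 4 was at 14.2 CPM against 5.66 to 7.08 CPM. Col5a1 in mouse 2 was at 92 CPM against 107 to 110 CPM. Zc3h12a in mouse 2 was at 39.7 CPM against 33.4 to 34.1 CPM. Tap1 in mouse 3 was at 15.1 CPM against 13 to 13.3 CPM.

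In 4 genes OGN minus EVs had 1 sign in every Epcam+ library pair and the opposite sign in every CCL206 pair, a difference that was not tested. Ccn1 had a mean log2 ratio of 0.752 in Epcam+ and -1.06 in CCL206 cells. Col6a3 had -0.554 in Epcam+ and 0.766 in CCL206 cells, Fn1 had -0.66 and 0.938, and Lmo7 had -0.0614 and 0.84. In CCL206 cells the EV libraries of mice 2 and 4 stood apart. With mice 1 and 3 alone the mean CCL206 log2 ratio was 0.0732 for Col6a3, 0.156 for Fn1, 0.596 for Lmo7 and -1.13 for Ccn1. Fn1 in EV-treated CCL206 cells was at 1932 CPM in mouse 2 and 1226 CPM in mouse 4 against 4578 and 4166 CPM in mice 1 and 3.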

How the results depend on the processing

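The count of 217 genes (65 higher, 152 lower) was within 1.5 times under RLE scaling, no filter or a filter of 10 counts, all 16 libraries, DESeq2, thinning and removal of the length trend, where it ran from 158 to 260. Without the replicate block for mouse, which comes from the labels, it was 166 with 38 higher. Leaving out 1 mouse gave 95 to 289 genes (29 to 105 higher, 66 to 184 lower). Against a 1.2-fold change glmTreat gave 89 (27 higher, 62 lower). With the fibroblast level and the block in edgeR's model it was 0 (0 higher, 0 lower), with 239 genes at an unadjusted p under 0.05. That level separates the groups and leaves 2 residual degrees of freedom, and no other tool was run with it.

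Outside the covariate fit, 44 of the 84 named genes that passed kept their call under every alternative run per gene, among them 23 of the 24 with the smallest p, the exception being Cd177 without the block. The block changed the call of 22 of the 84, which were Cd177, Atf3, Ccng1, Cd36, Ces1f, Cx3cl1, Cxcl1, Hgf, Hp, Icam1, Krt15, Ldha, Loxl2, Ltf, Mdm2, Nupr1, Sftpd, Slc11a2, Slc39a8, Tgm2, Tnfaip3 and Wnt5a, and no other call among them. Thinning changed 17 calls. The sign turned with the covariate for Gprc5a (-0.051), Epcam (-0.1007), Axl (0.09812), Col5a1 (0.07126), Fabp5 (-0.09864), Tap1 (0.003814), Hmgcs1 (-0.105), Calr (-0.004856), Pcna (-0.3531) and Krt5 (-0.1607). It turned with the length trend removed for Gprc5a (-0.0007106) and Sftpb (-0.009012), and with thinning for Gprc5a (-0.02339). When 1 mouse was left out, values ran from -0.01965 (without mouse 3) to 0.08477 for Emp2, from -0.01891 (without mouse 4; -0.001264 without mouse 3) to 0.04693 for Gprc5a, from -0.0009205 (without mouse 4) to 0.1262 for Sftpb, and from -0.3232 to 0.1019 (without mouse 1) for Cd68. Of these genes Axl, Col5a1, Fabp5 and Tap1 had passed the test. The cause was not tested. At a biological coefficient of variation of 0.126 and 4 mice, small changes could be missed, and the shallowest library held 3792377 counts.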

Other observations

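Beyond the lists, a few groups of genes that passed the test stood out after their values were seen, and they are given as values only. The early growth response factors Egr1, Egr2 and Egr3, transcription factors switched on quickly by growth factor or integrin signals, were all lower with OGN. Egr1 had a log2 fold change of -1.12 ± 0.14 SE, Egr2 -2.62 ± 0.45 SE and Egr3 -1.38 ± 0.22 SE. Their mean vehicle CPM in CCL206 cells was 4.13, 7.59 and 6.34 times that in Epcam+ cells. Egr1 ranged from 32.6 to 62.95 CPM with OGN and from 80.5 to 123 CPM with EVs.

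Secreted modulators of Wnt signals were among the lower genes. Dkk3 (-1.08 ± 0.15 SE) and Sfrp1 (-0.83 ± 0.12 SE), which bind Wnt ligands or their receptors, were lower. Scara5, a ferritin-binding scavenger receptor, was lower at 0.279 to 3.54 CPM against 7.19 to 13.8 CPM (-2.58 ± 0.43 SE).

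Some further single genes were higher with OGN, and whether any of them acts on the groups described above was not tested. Cebpd, a C/EBP factor of the acute-phase response, was at 23.5 to 33.995 CPM with OGN and 16.9 to 21.6 CPM with EVs (0.65 ± 0.14 SE), and Hif1a had 0.36 ± 0.075 SE. Il33, an alarmin made by AT2 cells, was at 218 to 257 CPM with OGN and 154 to 186 CPM with EVs (0.47 ± 0.082 SE). Vnn1, the other vanin of the table that passed, had 0.78 ± 0.12 SE, and the zinc importer Slc39a4 0.54 ± 0.080 SE.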
